A study of Homo sapiens with 18 samples.

Results

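The genes described here are 10 genes of retinoic acid signaling, taken by name from the 57133 genes in the RNA-seq count table: the retinoic acid receptors RARA, RARB and RARG, the retinoid X receptors RXRA, RXRB and RXRG, the synthesis enzyme ALDH1A2, the degradation enzyme CYP26A1, and the carrier proteins CRABP1 and CRABP2. All 10 were found in the table and all 10 passed the filter on low counts. They were measured in PGP1, an established human induced pluripotent stem cell line grown in mTeSR1 on Matrigel. The WT group was unedited PGP1 (2 libraries), and the PCGF6-KO group was 2 lines, KO1 (clone 1, 2 libraries) and KO2 (clone 2, 2 libraries), in which a pair of guide RNAs with Cas9 removed part of the first PCGF6 exon from both alleles, with a different deletion in each line. PCGF6 is a subunit of the variant Polycomb complex PRC1.6, and the study asked what its loss does to gene expression and lineage choice in human pluripotent cells. Each knockout line was 1 clone selected after transfection, no source used here says whether the WT cells went through the same selection and cloning, and the protocols name no retinoid given to the sequenced cells. The effect of the deletion and that of clonal derivation cannot be told apart where only 2 clones were sequenced.

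Cells make retinoic acid from vitamin A (retinol) in steps: retinol enters and is held by binding proteins, is oxidized to retinal by retinol dehydrogenases such as RDH10, and is then oxidized irreversibly to retinoic acid by retinaldehyde dehydrogenases such as ALDH1A2, while CYP26 enzymes clear it. Retinoic acid is carried in the cell by CRABP1, CRABP2 and FABP5 and binds RAR, which sits on DNA as a heterodimer with RXR at response elements made of direct repeats of a hexamer, represses through corepressors without ligand and activates when ligand binds. In the embryo the pathway patterns the trunk and hindbrain through HOX genes, and RARB and CYP26A1 are among its classical direct targets.

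Response elements and 2 motifs named in the study's own binding analysis were searched for in RefSeq promoter windows (GRCh38.p14), each of 300 bases, 250 before and 50 after a transcription start. All 10 genes matched by symbol, with 19 windows. A direct repeat of 2 hexamers 5 bases apart, termed DR5, was searched for. Each hexamer could be AGGTCA, which is the consensus unit, or one of its variants: AGTTCA was one, GGGTCA another, and the remaining variant was GGTTCA. A DR5 was found on either strand in windows of 2 of the 10 genes, RARB and CYP26A1, while 0.106% of the 27305 genes with a window (0.0883% of 35116 windows) held one. Both are the classical direct targets named above and were taken by name, so no enrichment is read from these shares. The same hexamers 2 bases apart (0.0513% of all genes) or 1 base apart (0.161%) were in no window of the 10 genes. The 2 DR5 matches are shown because they lie in genes that were higher in PCGF6-KO cells, and capitals mark the hexamers.
RARB DR5: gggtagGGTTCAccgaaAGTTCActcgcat
CYP26A1 DR5: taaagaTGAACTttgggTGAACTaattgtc

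The RARB stretch lies at chr3:25428204-25428233 on the plus strand, from 59 to 30 bases before a RARB start, and its hexamers read along the gene. The CYP26A1 stretch lies at chr10:93073797-93073826, from 96 to 67 bases before a CYP26A1 start, and is printed on the plus strand, so that its hexamers read on the other strand. The E-box CACGTG was in windows of CYP26A1 and RARA and in those of 8.77% of all genes. CYP26A1 held 2 of them, which are shown with the E-box in capitals.
CYP26A1 E-box 1: tcagtttccccaCACGTGggaggaggcagc
CYP26A1 E-box 2: ttgcttcctcatCACGTGgaagagagccca

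They lie at chr10:93073387-93073416 and chr10:93073443-93073472 on the plus strand, in a window of a different CYP26A1 start from that of the DR5. The E2F6 motif GCGGGAA was in a window of RXRB and in those of 7.82% of all genes. None of the matches overlapped another. A match of letters is a description of the sequence and not a measured binding site, and the ChIP-seq samples of the series were not analysed here.

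The 6 RNA-seq libraries held between 15877396 and 18918609 counts. PCGF6 itself had 268 and 300 counts in WT, 99 and 103 in KO1, and 187 and 159 in KO2. As a TMM-scaled counts-per-million (CPM) level this was 17.2 ± 1.07 in WT, 5.42 ± 0.345 in KO1 and 10.1 ± 0.285 in KO2 (SD, n = 2 each). PCGF6 was lower in every knockout library, and KO2 was higher than KO1 by 0.90 log2 (adjusted p = 5.4e-05, edgeR). Reads from outside the deleted part still count toward the gene. Replicate libraries differed by more than counting error, with a chi-square of 2.4 (WT), 4.5 (KO1) and 3.2 (KO2) per degree of freedom. No source used here says that replicate libraries came from separate cultures, so the p-values measure the spread between these libraries. In bulk RNA, fewer cells of a type and less RNA per cell cannot be told apart.

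Between PCGF6-KO (4 libraries) and WT (2 libraries), 6 of the 10 genes were called, which took both a log2 fold change beyond 0.6 in either direction and a Benjamini-Hochberg adjusted p below 0.05 in edgeR's quasi-likelihood test. The called genes were RARB, RXRG, ALDH1A2, CYP26A1 and CRABP2, which rose, and CRABP1, which fell. Of all 17672 genes tested, 23.6% were called, 14.9% as higher and 8.7% as lower. The median log2 fold change was 1.01 over the 10 genes and 0.00 over all genes tested. RXRG and ALDH1A2 were above the filter's level of 0.577 CPM in no WT library and RARB in 1 of 2, so these 3 genes entered the test through the knockout libraries. CPM in the 4 knockout and 2 WT libraries did not overlap for 8 of the 10 genes (all but RARA and RXRA), against 57.1% of all genes tested, 29.5% with the knockout libraries higher and 27.6% with them lower.

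**Figure D1:**
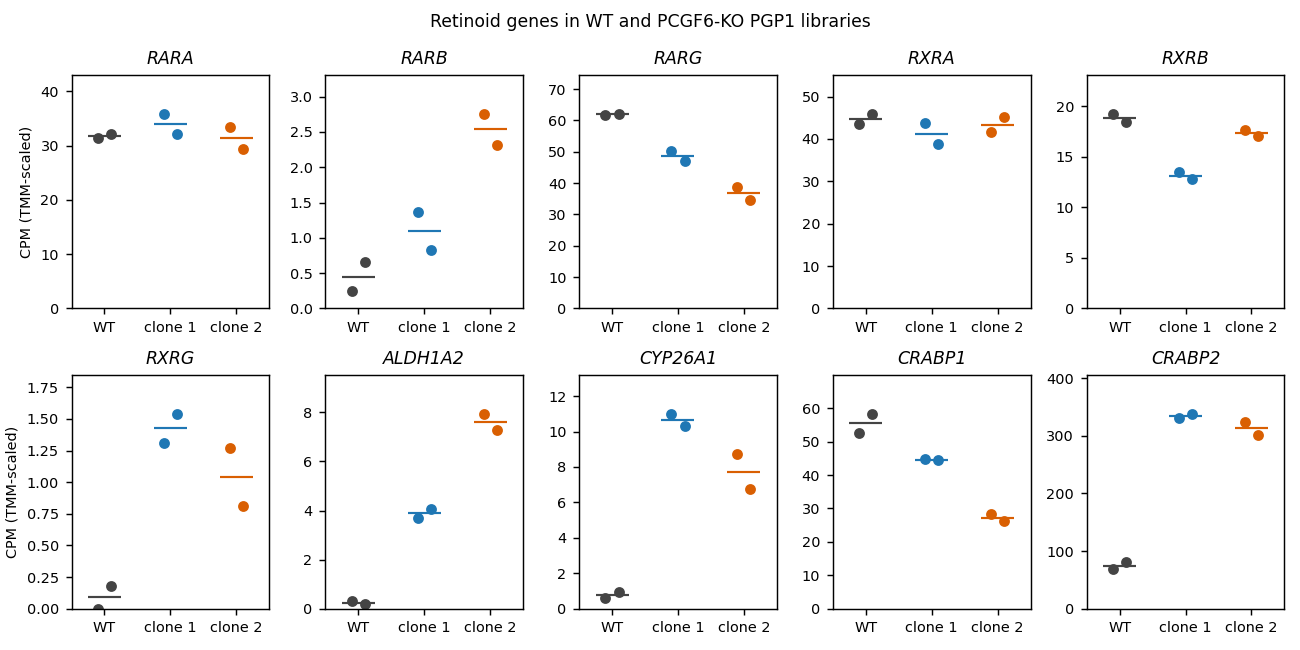
Level of each of the 10 genes in every library, in TMM-scaled CPM (vertical axis, from 0 in each panel, with a scale of its own), for WT, clone 1 (KO1) and clone 2 (KO2); points are libraries and lines are means of 2. CRABP2 lay between 302 and 338 CPM in the 4 knockout libraries and between 69.5 and 80.5 in WT, while the RARA and RXRA points of the groups overlapped.

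Among the receptors, RARG was the most abundant RAR in WT and was lower in both clones, while RARB was far below it and higher in both. RARG (chr12:53210567-53232980, minus strand, GRCh38), the RAR prominent in early embryonic and stem cells, had 1003 and 1038 counts in WT, 962 and 857 in KO1 and 704 and 555 in KO2. As CPM these were 61.6 and 62.2 in WT, 50.3 and 47.1 in KO1, and 38.8 and 34.6 in KO2. The 3 groups did not overlap, with WT highest and KO2 lowest. The pooled log2 fold change of RARG was −0.53 ± 0.14 (SE, adjusted p = 0.0147), a difference past the p threshold but under the fold threshold, and past neither without WT replicate 1 (adjusted p = 0.0871) or 2 (adjusted p = 0.104), in a range from 2.9e-07 to 0.104. It was −0.34 ± 0.08 in KO1 (adjusted p = 0.00109, under the fold threshold) and −0.75 ± 0.08 in KO2 (adjusted p = 2.8e-08, called).

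RARB (chr3:24687887-25597932, plus strand), whose own transcription is induced by retinoic acid, had 4 and 11 counts in WT, 26 and 15 in KO1, and 50 and 37 in KO2. The CPM values were 0.246 and 0.659 in WT, 1.36 and 0.825 in KO1, and 2.76 and 2.31 in KO2. All knockout libraries were above both WT libraries, and the KO2 libraries were above those of KO1. The ratio of summed, scaled counts was 3.94 (95% counting interval 2.30 to 7.24), and the pooled log2 fold change was 1.97 ± 0.61 (adjusted p = 0.0315). That call was lost without WT replicate 1 (1.44, adjusted p = 0.217), without WT replicate 2 (2.84, adjusted p = 0.0631), and without either KO2 library (1.70 and 1.84, adjusted p = 0.0556 and 0.0569), within a range of adjusted p over all alternatives from 0.000393 to 0.217. RARB was called in KO2 (2.46 ± 0.42, adjusted p = 2.0e-05) under each alternative that kept the gene, with log2 fold changes from 1.93 to 3.33. In KO1 the call (1.26 ± 0.48, adjusted p = 0.0341) was lost without WT replicate 1 (0.73, adjusted p = 0.313), without KO1 replicate 1 (0.85, adjusted p = 0.268) and with DESeq2 (adjusted p = 0.156), in a range from 0.0122 to 0.313.

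RARA (chr17:40309180-40357643, plus strand), the broadly expressed RAR, had CPM values of 31.3 and 32.2 in WT, 35.9 and 32.1 in KO1, and 33.5 and 29.3 in KO2. The groups overlapped, and the pooled log2 fold change of 0.05 had a 95% interval from −0.17 to 0.26 (adjusted p = 0.745).

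Of the obligate partners, RXRA and RXRB carried nearly all of the RXR signal and RXRG, the isotype best known from muscle and neural tissue, was near 0 in WT. RXRG (chr1:165400922-165445355, minus strand) had 0 and 3 counts in the WT libraries, 25 and 28 in KO1, and 23 and 13 in KO2. All knockout libraries were above both WT libraries, and those of KO1 were above those of KO2. The ratio of summed, scaled counts was 13.7, with a 95% counting interval from 4.53 to 67.6. The fitted log2 fold change of 3.67 ± 0.70 (adjusted p = 0.00331) rested on those 3 WT counts: it was 2.73 without WT replicate 1 and 7.45 without WT replicate 2, and the call was made in each case.

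RXRA (chr9:134317098-134440585, plus strand) had CPM values of 43.6 and 46.0 in WT, 43.7 and 38.7 in KO1, and 41.6 and 45.1 in KO2, and the groups overlapped. Its pooled log2 fold change was −0.09 (95% interval −0.28 to 0.10, adjusted p = 0.46). RXRB (chr6:33193588-33200665, minus strand) was at 19.3 and 18.5 CPM in WT, 13.5 and 12.8 in KO1, and 17.7 and 17.1 in KO2. All knockout libraries were below WT and KO1 lay below KO2. The pooled log2 fold change of RXRB was −0.30 (95% interval −0.64 to 0.03, adjusted p = 0.144) and that of KO1 was −0.52 ± 0.11 (adjusted p = 0.00037, under the fold threshold). In KO2 it was −0.11 (adjusted p = 0.399).

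The 2 enzymes with opposite roles were both higher in each clone. ALDH1A2 (chr15:57953424-58497866, minus strand), the main retinoic acid-producing enzyme of the early embryo, had 5 and 3 counts in WT, 71 and 74 in KO1, and 144 and 117 in KO2. As CPM these were 0.307 and 0.180 in WT, 3.71 and 4.07 in KO1, and 7.94 and 7.29 in KO2, with no overlap between the 3 groups. The ratio of summed, scaled counts was 23.4 (95% counting interval 11.8 to 54.6), and the pooled log2 fold change was 4.52 ± 0.54 (adjusted p = 0.000226).

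CYP26A1 (chr10:93073475-93077885, plus strand), the cytochrome P450 that clears retinoic acid and carries the DR5 match shown above, had 10 and 16 counts in WT, 211 and 187 in KO1, and 158 and 108 in KO2. The CPM values were 0.614 and 0.959 in WT, 11.0 and 10.3 in KO1, and 8.71 and 6.73 in KO2. Here KO1 was the higher clone, the reverse of the order for ALDH1A2. The count ratio was 11.8 (95% counting interval 7.97 to 18.2) and the pooled log2 fold change 3.53 ± 0.31 (adjusted p = 3.5e-05). Per length, the ratio of ALDH1A2 to CYP26A1 was 0.172 and 0.0646 in WT, 0.116 and 0.136 in KO1, and 0.314 and 0.373 in KO2, so KO1 lay between the WT libraries and KO2 above them. The WT ratios rest on 5 and 3 counts of ALDH1A2 and 10 and 16 of CYP26A1, so the place of the clones against WT is imprecise.

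The 2 carriers moved in opposite directions. CRABP2 (chr1:156699606-156705816, minus strand), which delivers retinoic acid to RAR in the nucleus, had 1131 and 1344 counts in WT, 6335 and 6137 in KO1, and 5875 and 4846 in KO2. This was 69.5 and 80.5 CPM in WT, 331 and 338 in KO1, and 324 and 302 in KO2. All knockout libraries lay far above WT, and KO1 slightly above KO2. CRABP2 rose 4.32-fold over both clones (log2 fold change 2.11 ± 0.09, adjusted p = 4.4e-07), with log2 fold changes of 2.16 ± 0.07 in KO1 and 2.06 ± 0.07 in KO2. CRABP1 (chr15:78340353-78348225, plus strand), the carrier linked to retinoic acid catabolism in the cytoplasm, had 856 and 973 counts in WT, 855 and 808 in KO1, and 512 and 421 in KO2.

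CRABP1 levels were 52.6 and 58.3 CPM in WT, 44.7 and 44.4 in KO1, and 28.2 and 26.2 in KO2, with no overlap and KO2 lowest. The pooled fall was 0.62 on the log2 scale (log2 fold change −0.62 ± 0.21, adjusted p = 0.0471), close to both thresholds. The pooled call was lost with at least 10 counts required in every library (−0.60, adjusted p = 0.0529), without WT replicate 1 (−0.70, adjusted p = 0.135) or 2 (−0.55, adjusted p = 0.246), and without KO2 replicate 1 (−0.52, adjusted p = 0.0881) or 2 (−0.50, adjusted p = 0.0674). Adjusted p over all alternatives ran from 1.9e-08 to 0.246. In KO2 alone CRABP1 fell to a log2 fold change of −1.02 ± 0.09 (adjusted p = 2.5e-10), and in KO1 it was −0.31 ± 0.08 (adjusted p = 0.00332, under the fold threshold).

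**Figure D2:**
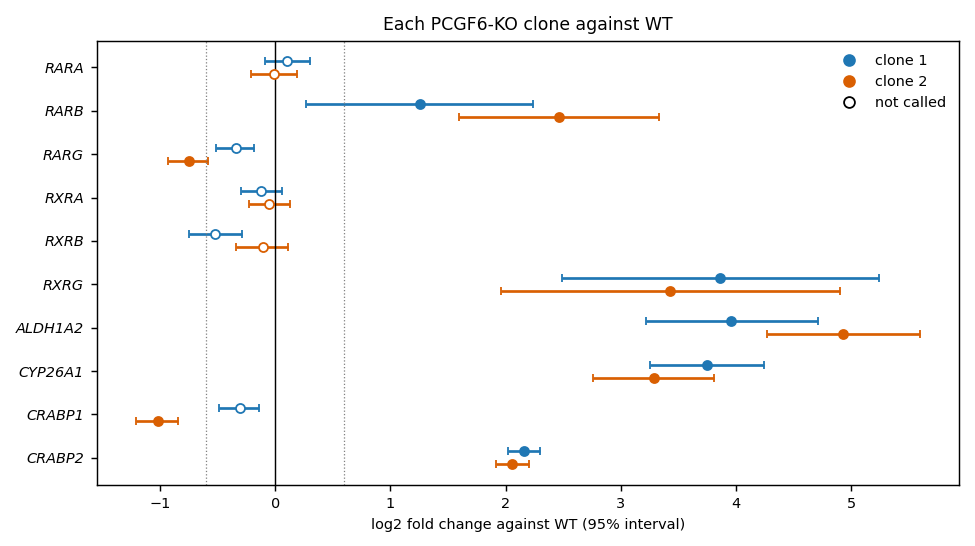
Log2 fold change of each of the 10 genes against WT (horizontal axis) in clone 1 and clone 2, with 95% intervals; filled points passed both thresholds, open points did not, and dotted lines mark the fold threshold of 0.6 in each direction. RARB, RXRG, ALDH1A2, CYP26A1 and CRABP2 were called as higher in each clone, and both clones are set against the same 2 WT libraries.

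Taken clone by clone, 5 of the 10 genes were called in KO1, all higher (background 24.8% of genes tested, 16% as higher and 8.8% as lower), and 7 in KO2, 5 higher and 2 lower (background 29.4%, 16.9% as higher and 12.5% as lower). At the p threshold alone the background was 45.3% in KO1 and 50.4% in KO2. These comparisons share their WT libraries, so the clones were also compared directly. At both thresholds, 3 of the 10 genes differed between the clones, against 7.87% of all genes tested (3.73% higher and 4.14% lower in KO2). ALDH1A2 was higher in KO2 by 0.97 ± 0.19 (adjusted p = 0.000385), RARB was higher by 1.21 ± 0.34 (adjusted p = 0.0134) and CRABP1 was lower, at −0.71 ± 0.09 (adjusted p = 1.6e-06). The RARB difference was lost without KO1 replicate 2 (0.89, adjusted p = 0.122), without KO2 replicate 1 (1.07, adjusted p = 0.109) and with DESeq2 (adjusted p = 0.178), in a range from 0.00142 to 0.178. RARG (−0.41), RXRB (0.41) and CYP26A1 (−0.46) passed the p threshold alone, with adjusted p of 0.000946, 0.0102 and 0.0405, where 19.5% of all genes did. For CRABP2 the difference was −0.10 (95% interval −0.23 to 0.03), for RARA −0.12 (−0.31 to 0.08), for RXRA 0.07 (−0.11 to 0.25) and for RXRG −0.44 (−1.27 to 0.40), all short of the p threshold.

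Levels of different genes were compared per length, as RPKM (CPM per kilobase of the deposited gene length). The order depends on that length, which was 11083 bases for RXRA and 3920 for RXRB. In CPM, RXRA was above RXRB in every library. In WT the order by mean RPKM was CRABP2 (68.2), CRABP1 (55.8), RARG (12.1), RARA (6.70), RXRB (4.81), RXRA (4.04), CYP26A1 (0.265), RARB (0.122), RXRG (0.0333) and ALDH1A2 (0.0282). Replicates of neighbours overlapped there only for RARB with RXRG and for RXRG with ALDH1A2. In KO1 the order was CRABP2 (304), CRABP1 (44.9), RARG (9.50), RARA (7.19), RXRA (3.71), CYP26A1 (3.59), RXRB (3.36), RXRG (0.528), ALDH1A2 (0.451) and RARB (0.296). The neighbours RXRA and CYP26A1 overlapped in it, so the degradation enzyme reached the level of RXRA and RXRB per length. In CPM, CYP26A1 (11.0 and 10.3) stayed below RXRA (43.7 and 38.7) and RXRB (13.5 and 12.8) in KO1. In KO2 the order was CRABP2 (285), CRABP1 (27.4), RARG (7.16), RARA (6.63), RXRB (4.44), RXRA (3.91), CYP26A1 (2.60), ALDH1A2 (0.883), RARB (0.685) and RXRG (0.386), and RARG overlapped RARA.

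The make-up of each family followed from these levels. RARG made up 64.3% and 63.5% of the summed RAR RPKM in WT, 55.2% and 56.7% in KO1, and 49.2% and 49.7% in KO2, on average 11.2 percentage points less in PCGF6-KO (difference −11.2). The RARA share was 35.4% and 35.6% in WT, 42.7% and 41.9% in KO1, and 46% and 45.7% in KO2. RARB stayed a minor share, from 0.356% and 0.933% in WT to 2.07% and 1.38% in KO1 and 4.85% and 4.60% in KO2. The summed RAR RPKM was 18.7 and 19.1 in WT, 17.8 and 16.2 in KO1, and 15.4 and 13.6 in KO2. CRABP2 made up 54.4% and 55.5% of the summed CRABP RPKM in WT, 87.0% and 87.3% in KO1, and 91.2% in both KO2 libraries, a mean difference of 34.2 points. The RXRA share overlapped between the groups, with 44.4% and 46.5% in WT and 42.9% to 50.1% in the knockout libraries, while RXRG went from at most 0.747% to between 3.44% and 7.79%. The RXRB share was 55.6% and 52.7% in WT and lower, at 43.8% to 51.7%, in the knockout libraries. The size of the RXRA share depends on the length. By CPM it was 69.3% and 71.2% in WT and 68.7% to 74.7% in the knockout libraries, again overlapping. The RXRB share by CPM overlapped too, with 30.7% and 28.5% in WT and 23.1% to 29.2% in the knockout libraries. No test was run on the shares.

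**Figure D3:**
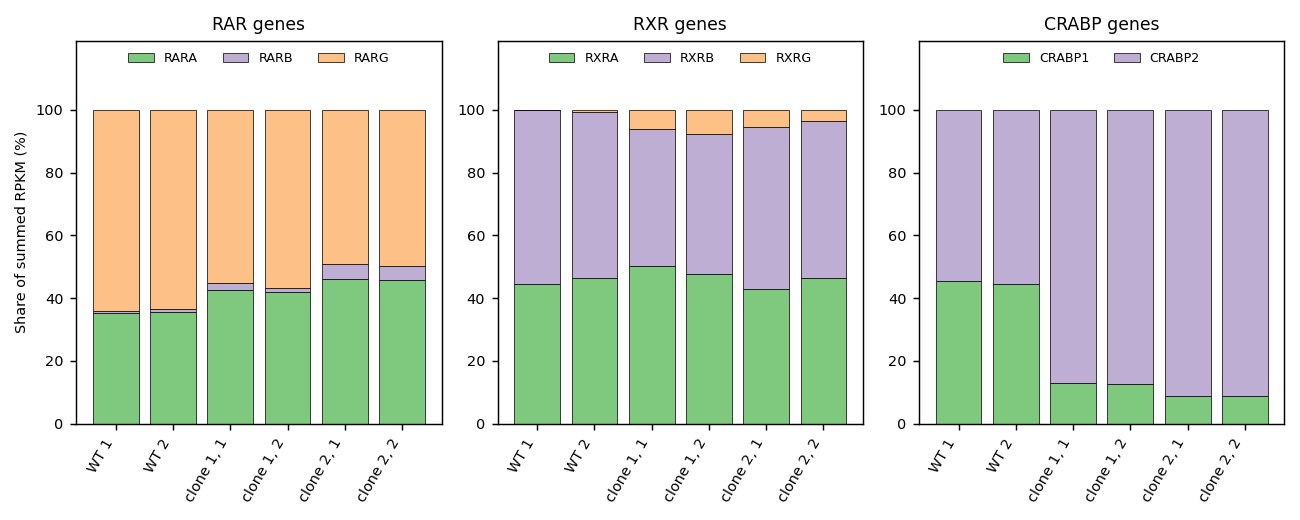
Share of each gene in the summed RPKM of its family (vertical axis, percent) in each of the 6 libraries, for the RAR, RXR and CRABP genes. RARG takes over 60% of the RAR bar in WT and under 50% in clone 2, and CRABP2 takes 87.0% or more of the CRABP bar in each knockout library.

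Other genes of the pathway were taken in 6 lists of 84 genes in all, without the 10 genes above, of which 63 passed the filter. Of these 63, 20 were called as higher and 3 as lower in PCGF6-KO, which is 36.5% where 23.6% of all genes tested were called, and their median log2 fold change was 0.26. Of the 23 calls, 12 were in the list of retinoic acid-responsive genes. In the other 5 lists 11 of 48 genes tested were called, or 22.9%, a share near that of all genes. Of the 12 called responsive genes, 10 were under the filter's level in at least 1 WT library and so entered the test through the knockout libraries, where a gene had to differ, and nothing is read from that list's share.

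For retinol uptake and storage, 7 of 12 genes were tested, 2 were higher and none was lower (median log2 fold change −0.06). STRA6, the membrane receptor that takes up retinol, rose from 19.2 and 16.8 CPM to between 44.5 and 58.0 (1.48 ± 0.12, adjusted p = 2.6e-05). Every knockout library lay above WT for STRA6. Of the retinol and retinal dehydrogenases, 10 of 18 were tested and 1 was called: RDH10, which makes retinal for ALDH1A2, went from 8.78 and 9.05 CPM to between 13.8 and 18.0 (0.86 ± 0.14, adjusted p = 0.0013). The retinal reductase DHRS3, which works against RDH10, was not called (log2 fold change 0.44, adjusted p = 0.0524).

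Among the other synthesis and degradation enzymes, 6 of 8 were tested, 2 were higher and 1 lower (median 0.40). CYP1B1, a cytochrome P450 that can oxidize retinol and retinal besides other substrates, had 8 and 16 counts in WT and between 1121 and 1211 in the knockout libraries, a count ratio of 89.5 (95% counting interval 60.1 to 140, adjusted p = 1.2e-07). CYP26B1, a relative of CYP26A1, was at 0.614 and 0.360 CPM in WT and between 1.81 and 3.09 in PCGF6-KO (2.35 ± 0.37, adjusted p = 0.00113), and CYP26C1 had at most 4 counts in any library and was not tested. The retinaldehyde dehydrogenases did not move together. ALDH1A1 fell from 3.44 and 3.30 CPM to between 0.249 and 1.10 (log2 fold change −2.41 ± 0.39, adjusted p = 0.00143), and ALDH1A3 was at 2.52 and 2.16 CPM in WT and 2.93 to 3.92 in PCGF6-KO (0.62, adjusted p = 0.0547), next to the increase of ALDH1A2 given above.

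Of the carriers and coregulators, 14 of 15 were tested, 2 were higher and 1 lower (median 0.01). FABP5, the carrier that passes retinoic acid to PPARD, rose from 84.6 and 84.5 CPM to 162 and 169 in KO1 and 241 and 226 in KO2 (1.24 ± 0.17, adjusted p = 0.000477). NRIP1, a ligand-dependent corepressor, rose by 1.00 log2 (adjusted p = 0.0013), and NCOA2, a coactivator of nuclear receptors, was lower by a log2 fold change of −0.80 (adjusted p = 0.00136). NCOR1, a corepressor of unliganded RAR, was not called (log2 fold change −0.15, adjusted p = 0.0685). Of the other receptors that pair with RXR, 11 of 13 were tested, 1 was higher and 1 lower (median 0.02). VDR, the vitamin D receptor, went from 7.55 and 6.35 CPM to between 0.748 and 1.15 (log2 fold change −2.78 ± 0.22, adjusted p = 1.9e-05), and THRB, a thyroid hormone receptor, from 2.58 and 2.94 CPM to between 7.01 and 8.54 (1.46 ± 0.18, adjusted p = 0.000249).

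In the list of retinoic acid-responsive genes, 16 of 19 were tested, 12 were called as higher and none as lower. Many of these genes are also switched on by other signals in early mesoderm and trunk tissue. CDX1, a caudal homeobox gene, was at 0 counts in WT, and reached 208 and 139 in KO1 and 335 and 313 in KO2, at least 153-fold higher when set against 3 counts over the WT group. By the same bound NR2F2, an orphan nuclear receptor, was at least 137-fold and HOXA3 at least 89.3-fold higher. The list's median log2 fold change was 5.84, and 4.93 with the 5 genes at 0 in WT set to their bounds.

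**Figure D4:**
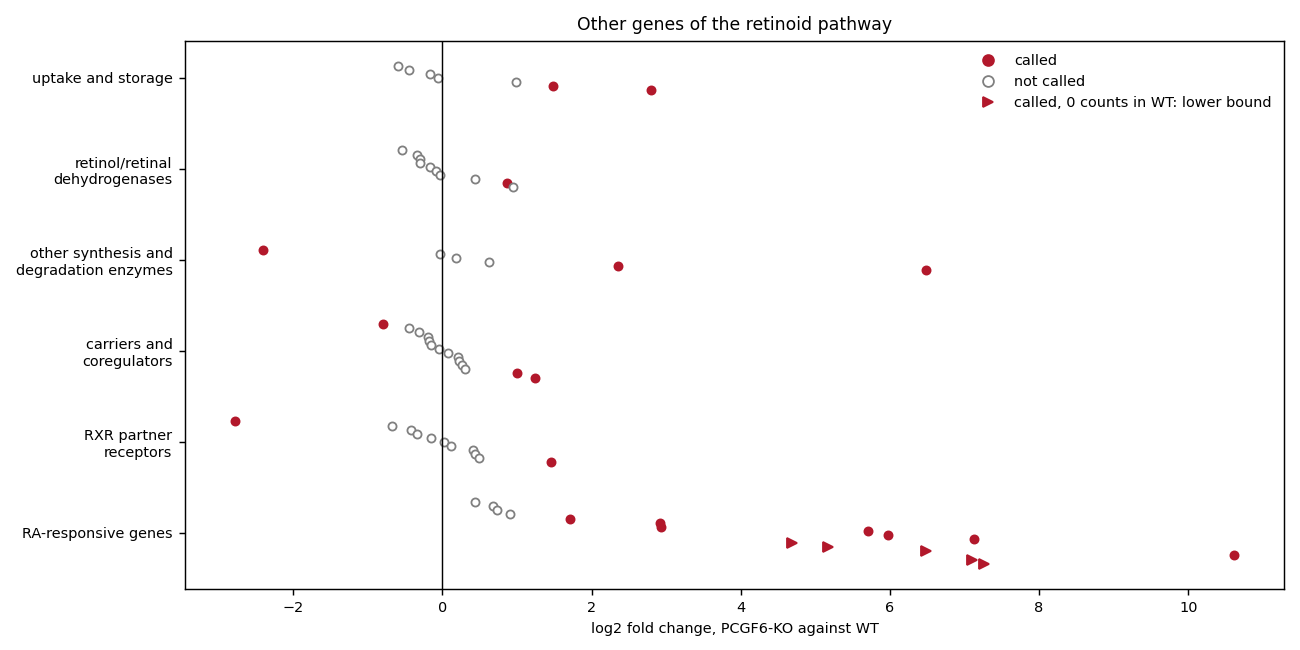
Log2 fold change of each tested gene in PCGF6-KO against WT (horizontal axis) for the 6 lists of other retinoid genes; red points were called, open points were not, and triangles are called genes with 0 counts in both WT libraries, drawn at the lower bound. In the lowest strip 12 of 16 genes are red and all lie to the right of 0, while the other strips hold 1 to 3 red points each.

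Markers of several cell types also differed between PCGF6-KO and WT, in both directions. Of all genes tested, 23.6% were called, 14.9% as higher and 8.7% as lower, and 37.1% passed the p threshold alone. Of 10 pluripotency markers, 0 were called as higher and 3 as lower (SOX2, DNMT3B and ZFP42), with POU5F1 at a log2 fold change of 0.01. At the p threshold alone 1 was higher (NANOG, 0.40) and 6 were lower. The summed level of the 10 was 10100 to 10500 CPM in WT, 7870 to 7880 in KO1 and 7260 to 7440 in KO2. The largest part of this fall was DNMT3B, at 2960 and 3080 CPM in WT and 1150 to 1600 in the knockout libraries. Of 10 mesendoderm markers, all 9 tested were higher, and the sum was 7.97 to 8.35 CPM in WT, 641 to 642 in KO1 and 781 to 791 in KO2, with MESP1 and SOX17 at 0 in WT. MIXL1 (289 to 342 CPM), TBXT (169 to 304) and EOMES (89.1 to 139) supplied most of the knockout sums. Of 10 neuroectoderm markers, 4 of the 8 tested were higher and 2 lower, with sums of 380 to 428, 647 to 725 and 682 to 770 CPM. Most of each sum was NES, at 277 and 322 CPM in WT and 592 to 709 in the knockout libraries. ZIC1, LHX2 and POU3F2 were also higher, but reached at most 3.41 CPM. The lower genes were OTX2, from 72.0 and 72.1 CPM to between 28.8 and 31.6, and HESX1, from 14.6 and 17.3 to between 0.499 and 2.09. Of 10 amnion and surface ectoderm markers, 6 of the 8 tested were higher and 0 lower, with sums of 242 to 254, 604 to 666 and 861 to 962 CPM and TFAP2B and HAND1 at 0 in WT. KRT18 supplied most of each of these sums, at 241 and 232 CPM in WT and 520 to 791 in the knockout libraries. Of 10 fibroblast markers, 8 of the 9 tested were higher and 1 lower, with sums of 1010 to 1020, 2000 to 2040 and 2280 to 2390 CPM and DCN, LUM and DPT at 0 in WT. The lower gene was THY1, which supplied 620 and 605 CPM of the WT sums and was at 258 to 284 in the knockout libraries. Among the 8 higher genes, COL1A1 went from 126 and 125 CPM to between 585 and 771. Some called markers were under the filter's level (0.577 CPM) in at least 1 WT library, so they entered the test through the knockout libraries. They were TBXT, EOMES, GSC, SOX17, FOXA2, GATA6, ZIC1, LHX2, POU3F2, TFAP2A, TFAP2B, ISL1, HAND1, COL3A1, DCN and LUM. Nothing is read from the share of calls in their lists. The part of these markers' cell types in the levels of the retinoid genes was not tested.

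Genes with the most similar profiles over the 6 libraries were found by the Euclidean distance between log2 CPM values centred on each gene's mean, among 15631 genes. The nearest to CRABP2 was SLC16A3 (distance 0.180), to CYP26A1 FOSL1 (0.430), to ALDH1A2 EBF3 (0.320) and to RXRG DPP10-AS1 (0.297). TFAP2A-AS2 was nearest to RARB (0.335), ALG6 to CRABP1 (0.114) and CDHR3 to RARG (0.102). With 6 libraries in 3 groups, the likeness rests mainly on the group means.

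Some exons of these genes are shared with other annotated genes (GENCODE annotation of GRCh38). Antisense or opposite-strand genes overlapped 21.4% of the exonic bases of RARA, 45.9% of CRABP1, 9.26% of RXRB and 6.93% of ALDH1A2, and a same-strand long noncoding RNA overlapped 25.3% of CYP26A1. The strand setting of the counting is not given in the sources used here, so reads of the opposite-strand partners cannot be told apart from those of the 4 genes. RARB, RARG, RXRG and CRABP2 had no such overlap, and RXRA shared 0.513% with a microRNA gene.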

How the data were processed

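RNA-seq libraries of WT PGP1 cells, PCGF6-KO clone 1 and PCGF6-KO clone 2 were used (2 each of 18 samples in the series), grouped by their titles. The 12 ChIP-seq and input samples were not analysed here. The authors trimmed reads with Trim Galore (0.6.2), aligned them to GRCh38 with HISAT2 (2.1.0), counted them per gene with featureCounts and deposited raw counts with gene lengths. The annotation release, strand setting and handling of multi-mapped reads are not given in the sources used here. The counts summed to 15877396 to 18918609 per library.

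Genes were filtered with filterByExpr of edgeR (4.0.16, limma 3.58.1, R 4.3.3), which left 17672, scaled by TMM and tested with glmQLFit and glmQLFTest, the 4 knockout libraries as 1 group and, in a fit with 3 groups, each clone against WT and clone 2 against clone 1. P-values were adjusted by Benjamini-Hochberg over all genes tested, and the study's thresholds were used for calls, an adjusted p below 0.05 with a log2 fold change beyond 0.6 in either direction. The code was tested on simulated data. CPM and RPKM were computed from the counts, with TMM-scaled totals. Count ratios have exact 95% intervals, and bounds use 3 counts over the WT group; both cover counting error only. Log2 CPM for profile likeness used a prior count of 2. Alternatives were DESeq2 (1.42.0), other scalings and filters, the p threshold alone, fits with only the compared libraries, clone means in place of pooled libraries, the replicate block and leaving out each library. Named genes were the 10 genes, up to 4 called genes with the largest change per list, genes with a role next to one of the 10 genes, and for likeness the nearest genes; some genes that the rule names are not reported here. The members and lists were chosen with earlier results of these data known. Promoters were searched on both strands, and gene positions were taken from the GENCODE annotation of GRCh38. Replicate numbers did not pair the libraries, since the correlations of same-numbered deviations between groups were 0.00, 0.04 and 0.06 over 17672 genes.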

Additional observations from a re-analysis of the deposited data

Results flagged for a closer look

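The 2 knockout clones differed in 6 of the 10 genes at an adjusted p under 0.05 alone (19.5% of all genes tested did), by the direct edgeR test of KO2 against KO1 with Benjamini-Hochberg adjustment over all genes. With the fold threshold as well, 3 were called (7.87% of all genes tested), namely RARB, ALDH1A2 and CRABP1. The log2 differences were 1.21 for RARB (adjusted p = 0.0134), 0.97 for ALDH1A2 (adjusted p = 0.000385) and 0.41 for RXRB (adjusted p = 0.0102), which were higher in KO2. They were −0.41 for RARG (adjusted p = 0.000946), −0.46 for CYP26A1 (adjusted p = 0.0405) and −0.71 for CRABP1 (adjusted p = 1.6e-06), which were lower in KO2. Over the alternatives the p threshold was missed for RARB as given above, for RXRB without KO1 replicate 2, without KO2 replicate 1 and with DESeq2 (adjusted p = 0.0611, 0.0759 and 0.0877, range from 0.00374), and for CYP26A1 without either KO1 library, without KO2 replicate 2 and with DESeq2 (adjusted p = 0.173, 0.0603, 0.356 and 0.314, range from 0.0175). PCGF6 itself was 0.90 log2 higher in KO2 than in KO1, and the summed mesendoderm markers were at 781 to 791 CPM in KO2 and 641 to 642 in KO1. Of the 9 mesendoderm markers tested, 5 were called as higher in KO2 and 0 as lower. TBXT was at 304 and 289 CPM in KO2 and at 183 and 169 in KO1. EOMES went the other way, with 89.1 and 103 CPM in KO2 and 138 and 139 in KO1. The part of PCGF6 and of these markers in the clone differences was not tested. Each clone is 1 line, so a difference between the deletions and one between clones cannot be told apart. No library of the 4 in PCGF6-KO was farther from the others than Dixon's critical value allows for any of the 10 genes. Where the clones differ, their distance widens the range of the 4 libraries. The check can then miss a library far from its partner, and nothing is read from it.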

How the results depend on the processing

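The called genes among the 10 numbered 6 for PCGF6-KO, 5 for KO1, 7 for KO2 and 3 for KO2 against KO1. With at least 10 counts in every library, which drops RARB, RXRG and ALDH1A2, they numbered 2, 2, 4 and 1, and the other pathway genes called numbered 11 in place of 23. With the adjusted p alone, 8 were called in KO1 and 6 between the clones. Leaving out each library gave 4 to 7 for PCGF6-KO, 4 to 5 for KO1, 7 for KO2, 2 to 3 between the clones, and 23 to 24 pathway genes. Other scalings, no filter and DESeq2 kept these counts within 1.5 times, and scaling moved the median of all genes by at most −0.03. Values that changed sign were near 0: RARA in KO2 was 0.00 with at least 10 counts, 0.00 without WT replicate 2 and 0.08 without KO2 replicate 2. Leaving out each library moved RARA in KO2 between −0.11 and 0.08, RXRA in KO2 between −0.11 and 0.02, and RXRA between the clones from −0.02 to 0.17. RXRA was 0.02 in KO2 without KO2 replicate 1, and −0.02 between the clones without KO1 replicate 2. The replicate block left 4 genes called in PCGF6-KO, without RARB (adjusted p = 0.0646) and CRABP1 (adjusted p = 0.0889), and 5, 7 and 3 elsewhere, with 23 pathway genes. These numbers did not pair the libraries. The cause of these changes was not tested. RARG was called in PCGF6-KO without KO1 replicate 1 (−0.61). The make-up differences ran from 32.7 to 35 points for CRABP2, −12.5 to −9.99 for RARG and 0.213 to 2.6 for RXRA. With 2 to 4 libraries a group and WT counts of at most 16 for RARB, RXRG, ALDH1A2 and CYP26A1, fold changes of these genes are imprecise.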
